A study of Mus musculus with 4 samples.

Results

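The 10 genes described here are regulators and surface markers of long-term hematopoietic stem cells (HSCs), chosen by name for these known roles with earlier results of these data already known. The regulators were Mecom, Hlf, Prdm16, Mllt3 and Hmga2, and the markers were Procr, Esam, Ly6a, Fgd5 and Ctnnal1. They were 10 of the 37140 genes listed in all 4 RNA-seq libraries, and all 10 passed the filter on low counts in every comparison. The libraries came from C57Bl6 mice and held 2 sorted bone marrow populations from Gfi1b WT and from Gfi1b KO animals, as the genotype labels give them, while the sample titles name Gfi1. The first population was sorted as Lin- cKit+ Sca1+ CD48- CD150+ and is called HSCs below, and the other is the CD41low/CD9low HSCs. That gate comes from the study's methods, whereas its results text names the first population CD41+/CD9+ HSCs. There was 1 library per population and genotype. Marrow of tibiae, femora and humeri from 10 WT mice or 5 KO mice was pooled before lineage depletion and sorting, so that animals were not separate samples. KO mice were Gfi1b fl/fl with a tamoxifen-inducible Rosa-Cre, which acts in all cell types and not only in HSCs. Tamoxifen was given 2 weeks before the experiment to the mice of all 4 libraries, WT and KO alike. According to the study's methods the controls were Gfi1b wt/fl with the same Rosa-Cre, whereas the design text deposited with the data speaks of floxed mice with or without Cre. Controls of the wt/fl genotype would carry a floxed allele as well, and its deletion in them was not checked here. Ages were not given in the sources used here.

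HSCs keep the capacity to renew themselves and to form all blood lineages, and a small set of transcription factors and chromatin-linked proteins holds that state in place. Mecom (EVI1), Prdm16, Hlf and Mllt3 are needed for long-term HSC function or expand it when supplied, and Hmga2 is a chromatin protein of fetal HSCs that is kept low in the adult. Procr, Esam, Ly6a, Fgd5 and Ctnnal1 are used to find the cells, as surface antigens or as reporter genes. Gfi1b is a transcriptional repressor of HSCs, megakaryocytes and erythroid cells that recruits LSD1, and mice that lack it have more HSCs in marrow and blood.

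The targeted gene was measured first. On the CPM scale, in which a gene's counts are scaled to a common library total, Gfi1b was at 182.3 in WT HSCs, 1197.1 in KO HSCs, 48.0 in WT CD41low/CD9low HSCs and 509.4 in KO CD41low/CD9low HSCs. The count covers the whole gene and does not separate the floxed exons from the others, so it is no check of the deletion, and WT and KO stand below for the libraries so labelled. The study itself reports the deletion in HSCs, where the floxed exons were no longer expressed. The total count on genes ranged from 41690708 to 50781007 in HSCs and from 12732079 to 19123185 in CD41low/CD9low HSCs. The populations were counted on different gene annotations, of 38293 and 41214 genes. The libraries also differed in sex-linked genes. Xist, the RNA of the inactive X chromosome, was at 1590.2 to 1705.5 CPM in HSCs and at 145.3 to 264.8 CPM in CD41low/CD9low HSCs, and 4 Y-linked genes summed to 76.4 CPM in WT HSCs and to 270.4 to 300.4 CPM elsewhere. The WT and KO pools of HSCs thus differed in Y-linked expression too. Sex, depth, annotation and population cannot be told apart here, nor sex and genotype within HSCs.

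Per kilobase of exon, the order of the genes by their mean RPKM (CPM divided by the kilobases of exon) over the 4 libraries was Procr, Hlf, Esam, Ly6a, Mecom, Mllt3, Fgd5, Ctnnal1, Prdm16 and Hmga2. The mean level was 69.0 ± 43.6 RPKM for Procr, 46.2 ± 15.8 for Hlf and 41.6 ± 3.26 for Esam (SD over the 4 libraries, which differ in population and genotype). Ly6a followed at 29.1 ± 14.5 and Mecom at 20.6 ± 3.14 RPKM. Mllt3 was at 14.7 ± 1.42, Fgd5 at 14.0 ± 3.49, Ctnnal1 at 10.9 ± 3.88 and Prdm16 at 7.25 ± 2.66 RPKM. Hmga2 was lowest at 1.23 ± 0.203 RPKM. The ranges over the libraries overlapped for every pair of neighbours in this order except Prdm16 and Hmga2, so that the order above Hmga2 is not firm. Procr varied over the libraries by a factor of 5.5 and Ly6a by 3.07, whereas Esam varied by 1.19 and Mllt3 by 1.22.

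**Figure D1:**
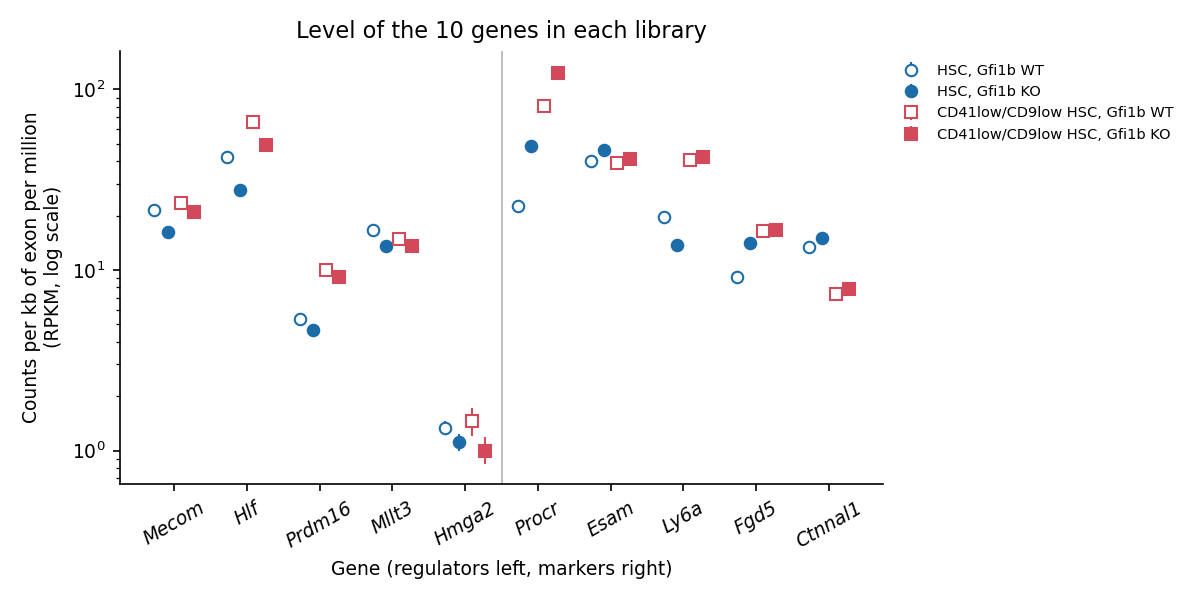
RPKM (log axis) of each gene in the 4 libraries, with open symbols for WT, filled symbols for KO, circles for HSCs and squares for CD41low/CD9low HSCs; bars are 95% counting intervals and are often smaller than the symbol. Procr runs from 22.5 RPKM in WT HSCs to 123.6 in KO CD41low/CD9low HSCs, while Esam stays between 39.0 and 46.3.

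The first question was how the 10 genes differ between KO and WT cells of each population. In both populations the 5 regulators were lower in the KO library than in the WT library, at 0.669 to 0.915 times its level. In HSCs 4 of the 5 markers were higher in KO, as were 7958 of all 15910 genes. In CD41low/CD9low HSCs the markers lay at 1.01 to 1.52 times the WT level, and only Procr differed from it by more than counting error. Procr (EPCR, the endothelial protein C receptor) differed most, at 2.2 times the WT level in HSCs and 1.52 times in CD41low/CD9low HSCs. Ly6a was the marker that was lower in KO HSCs, and it was near the WT level in KO CD41low/CD9low HSCs. With 1 library per group these ratios have no replicate check and no test, and the intervals given with them are exact 95% intervals for counting error only. In bulk RNA, fewer cells of a type and less RNA per cell cannot be told apart.

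Mecom (ENSMUSG00000027684, chr3:29951296-30548008, minus strand, GRCm38) encodes a PR-domain zinc-finger factor required to maintain HSCs. Its counts divided by the size factors of each pair were 12208.3 in WT HSCs and 9316.5 in KO HSCs, which gives a ratio of 0.763 (0.743 to 0.784). The CD41low/CD9low pair had 4576.9 and 4071.1, and a ratio of 0.889 (0.852 to 0.928). The KO library was thus the lower of the pair in both populations, and the distance between the libraries was smaller in CD41low/CD9low HSCs. Hlf (ENSMUSG00000003949, chr11:90336536-90390895, minus strand), a PAR bZIP factor that keeps HSCs quiescent, had 12815.9 and 8580.0 normalised counts in WT and KO HSCs. The values in the CD41low/CD9low pair were 6856.1 and 5141.5. Its ratios of 0.669 (0.651 to 0.688) and 0.75 (0.723 to 0.778) were the lowest of the 5 regulators in HSCs, while in CD41low/CD9low HSCs that of Hmga2 was lower.

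Prdm16 (ENSMUSG00000039410, chr4:154316125-154636873, minus strand), a PR-domain relative of Mecom that protects HSCs from oxidative stress, had 2271.0 and 1999.7 normalised counts in WT and KO HSCs, a ratio of 0.881 (0.828 to 0.936). In CD41low/CD9low HSCs it had 1447.6 and 1321.1, a ratio of 0.913 (0.846 to 0.984). Both ratios lay closer to 1 than that of Mecom in HSCs. Mllt3 (ENSMUSG00000028496, chr4:87769925-88033364, minus strand) encodes AF9, a reader of acetylated histones that works with the super elongation complex and DOT1L. It had 9116.4 and 7575.6 normalised counts in the HSC pair and 2788.7 and 2550.7 in the CD41low/CD9low pair, with ratios of 0.831 (0.806 to 0.857) and 0.915 (0.866 to 0.966). Hmga2 (ENSMUSG00000056758, chr10:120361275-120476469, minus strand) had 413.2 and 348.8 normalised counts in HSCs and 153.1 and 106.1 in CD41low/CD9low HSCs. Its ratios of 0.844 (0.729 to 0.977) and 0.693 (0.538 to 0.893) had the widest intervals, as its raw counts were 125 to 459 per library.

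All 5 regulators therefore had a ratio under 1 in both populations, against 27.6% of the 14144 genes that passed the filter in both, and as the list was chosen with earlier results known this count is a description only. None reached 0.6, the lower cutoff of the study, in HSCs, where 10.3% of 15910 genes did, or in CD41low/CD9low HSCs, where 12.0% of 14844 genes did. The regulators had a median ratio of 0.831 in HSCs and of 0.889 in the other population, and all genes had medians of 1.0 and 1.01. All 5 regulators lie on the minus strand and have 6.68 to 12.43 kb of exon sequence, merged over the transcripts of each gene. These features are not particular to them. The markers Ctnnal1 (7.66 kb) and Ly6a also lie on the minus strand, and Fgd5 has 6.29 kb. Short stretches of exon overlap a gene on the opposite strand in Mecom (81 bases), Prdm16 (109 bases) and Hmga2 (140 bases), and the strand setting of the counting was not given in the sources used here, so reads of these stretches cannot be assigned with certainty.

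The promoter windows of Mecom and Hlf, the regulators with the lowest HSC ratios, are printed. Both genes had lower normalised counts in both KO libraries. Gfi1b can act by binding DNA. In reporter assays of the study, Gfi1b could also activate TCF/LEF-dependent transcription without binding DNA. Whether Gfi1b acts on Mecom or Hlf was not tested. Each window holds 300 bases, 250 before and 50 after the RefSeq start, is written 5′ to 3′ on the gene's strand and comes from the RefSeq table of GRCm38.p6. Capitals mark AATC, the core of the Gfi1b binding motif, or CTTTGAT, the TCF/LEF core, on either strand. In Mecom an AATC match that begins 39 bases before the start overlaps the CTTTGAT match that begins 38 bases before it.
Mecom, chr3:30509710-30510009, minus strand: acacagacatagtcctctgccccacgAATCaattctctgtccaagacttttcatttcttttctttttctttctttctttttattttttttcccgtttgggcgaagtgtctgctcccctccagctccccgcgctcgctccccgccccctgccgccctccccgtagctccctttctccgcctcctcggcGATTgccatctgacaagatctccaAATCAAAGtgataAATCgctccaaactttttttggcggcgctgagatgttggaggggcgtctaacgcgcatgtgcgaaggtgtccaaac
Hlf, chr11:90390868-90391167, minus strand: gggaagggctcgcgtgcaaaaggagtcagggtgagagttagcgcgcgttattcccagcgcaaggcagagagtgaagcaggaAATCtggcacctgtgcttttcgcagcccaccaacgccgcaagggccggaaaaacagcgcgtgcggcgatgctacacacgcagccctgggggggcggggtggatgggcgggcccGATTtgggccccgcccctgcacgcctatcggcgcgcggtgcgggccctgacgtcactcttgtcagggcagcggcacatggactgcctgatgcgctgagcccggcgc
Mecom held 4 matches to AATC in this window and 1 to CTTTGAT, and Hlf held 2 matches to AATC. Windows were found for 8 of the 10 genes (none for Esam and Ly6a), with a second window for Mecom and for Mllt3. AATC occurred in 7 of these 10 windows and in 73.1% of all 32851 windows, and CTTTGAT in 1 of the 10 and in 3.73% of all. A longer form of the Gfi1b motif around this core, searched on both strands, occurred in 0 of the 10 windows and in 0.98% of all windows. A match says only that the letters are present and is not evidence of binding.

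Among the markers, Procr (ENSMUSG00000027611, chr2:155751117-155755471, plus strand) encodes a receptor for protein C that serves as a surface marker of long-term HSCs. It had 2087.4 normalised counts in WT HSCs and 4586.0 in KO HSCs, a ratio of 2.2 (2.09 to 2.31). In CD41low/CD9low HSCs it had 2572.0 and 3918.4, a ratio of 1.52 (1.45 to 1.6). Procr was above 1.5, the upper cutoff of the study, in both populations, which held for 3.32% of the 14144 genes. The lower end of its interval in CD41low/CD9low HSCs lay below that cutoff. Its promoter window is shown for comparison with those of the regulators, with the same marking.
Procr, chr2:155750967-155751266, plus strand: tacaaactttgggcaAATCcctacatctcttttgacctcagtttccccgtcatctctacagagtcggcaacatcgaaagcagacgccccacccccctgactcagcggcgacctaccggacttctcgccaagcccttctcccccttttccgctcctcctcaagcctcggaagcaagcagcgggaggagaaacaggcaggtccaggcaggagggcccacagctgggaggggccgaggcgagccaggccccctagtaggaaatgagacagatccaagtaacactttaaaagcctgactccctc
The Procr window held 1 match to AATC, 235 bases before the start, and none to CTTTGAT.

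Fgd5 (ENSMUSG00000034037, chr6:91978878-92076004, plus strand), an exchange factor for the GTPase Cdc42 whose reporter allele labels HSCs, had 2623.0 and 4079.4 normalised counts in WT and KO HSCs, a ratio of 1.56 (1.48 to 1.63). In CD41low/CD9low HSCs it had 1615.4 and 1628.9, a ratio of 1.01 (0.94 to 1.08). Fgd5 thus passed the upper cutoff in HSCs and lay at 1 in CD41low/CD9low HSCs. Procr and Fgd5 were 2 of 10 genes above 1.5 in HSCs, against 14.1% of all genes, and Procr was 1 of 10 in CD41low/CD9low HSCs, against 13.4%. Beside these background shares the counts of the list are not high.

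Esam (ENSMUSG00000001946, chr9:37528078-37538319, plus strand), an immunoglobulin-family adhesion molecule of endothelium and HSCs, had 5260.3 and 6150.3 normalised counts in WT and KO HSCs, a ratio of 1.17 (1.13 to 1.21). The CD41low/CD9low pair had 1741.6 and 1831.4, a ratio of 1.05 (0.984 to 1.12). Ctnnal1 (ENSMUSG00000038816, chr4:56810935-56865188, minus strand) encodes α-catulin, a relative of α-catenin, and a reporter in this gene marks HSCs in the marrow. It had 4697.7 and 5329.3 normalised counts in HSCs and 878.1 and 941.4 in CD41low/CD9low HSCs, with ratios of 1.13 (1.09 to 1.18) and 1.07 (0.976 to 1.18). For both genes the CD41low/CD9low interval included 1.

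Ly6a (ENSMUSG00000075602, chr15:74994877-74998031, minus strand) encodes Sca-1, which was itself part of the sort gate in all 4 samples. It had 1074.7 and 768.8 normalised counts in WT and KO HSCs, a ratio of 0.715 (0.65 to 0.786). Its values were 763.0 and 796.9 in the CD41low/CD9low pair, a ratio of 1.04 (0.944 to 1.16). It was the only member whose ratios lay on opposite sides of 1, and how the counting divided reads among near-identical Ly6 genes is not known, so its counts are uncertain. Esam, Procr, Fgd5 and Ctnnal1 were above 1 in both populations, as were 29.1% of the 14144 genes. The markers had a median ratio of 1.17 in HSCs and of 1.05 in the other population.

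**Figure D2:**
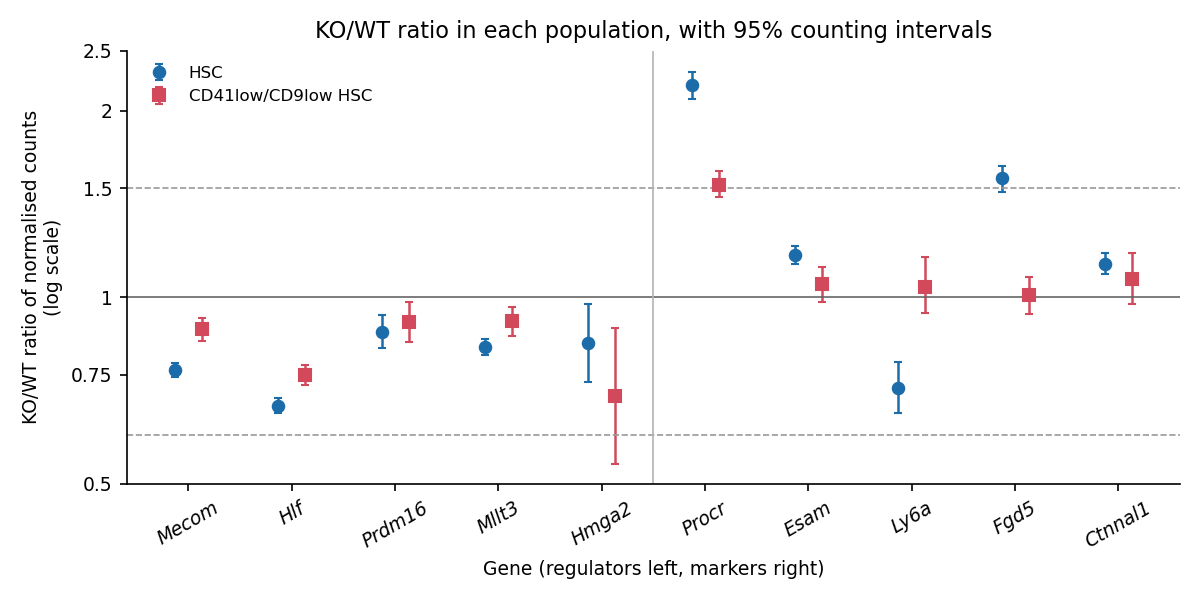
KO/WT ratio of normalised counts (log axis) of each gene in HSCs (circles) and CD41low/CD9low HSCs (squares), with exact 95% counting intervals; the dashed lines are the cutoffs of 1.5 and 0.6 and the solid line is 1. The 5 regulators lie below 1 in both populations, Procr lies above 1.5 in both, and the intervals of Fgd5, Ly6a, Esam and Ctnnal1 exclude 1 in HSCs and include it in CD41low/CD9low HSCs.

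All 10 ratios differed from 1 by more than counting error in HSCs and 6 did so in CD41low/CD9low HSCs, which had fewer reads. The share of all genes that did so was not computed, and at these depths small differences also pass. These counts are therefore no result about the 10 genes as a list. The ratio in CD41low/CD9low HSCs divided by that in HSCs was 0.693 (0.645 to 0.746) for Procr, 0.648 (0.595 to 0.706) for Fgd5 and 1.46 (1.27 to 1.68) for Ly6a. It was 1.17 (1.11 to 1.23) for Mecom and 1.12 (1.07 to 1.17) for Hlf. For Prdm16, Hmga2 and Ctnnal1 its interval included 1. These intervals cover counting error only, and a difference between the populations in the effect of genotype could not be tested, since that model leaves no residual degree of freedom.

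The HSC pair also carried a trend with exon length that the other pair did not. The median log2 KO/WT ratio of all genes in HSCs went from -0.19 in genes of up to 1.5 kb to 0.22 in genes over 9.0 kb, while the same medians ran from -0.02 to 0.02 in the CD41low/CD9low pair. All 5 regulators lie in the length classes with a median above 0 in HSCs, while Procr (2.03 kb), Esam (2.87 kb) and Ly6a (1.2 kb) lie in those below 0. With the ratios set against genes of like length, a correction added after the data were seen, the HSC ratio was 0.664 for Mecom, 0.639 for Hlf, 0.788 for Prdm16, 0.729 for Mllt3 and 0.805 for Hmga2. That of Procr was then 2.41, of Esam 1.29 and of Ly6a 0.82. Fgd5 was at 1.46, under the cutoff, and Ctnnal1 at 1.04. No gene changed sides of 1, and the part of RNA quality or library preparation in the trend was not tested.

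**Figure D3:**
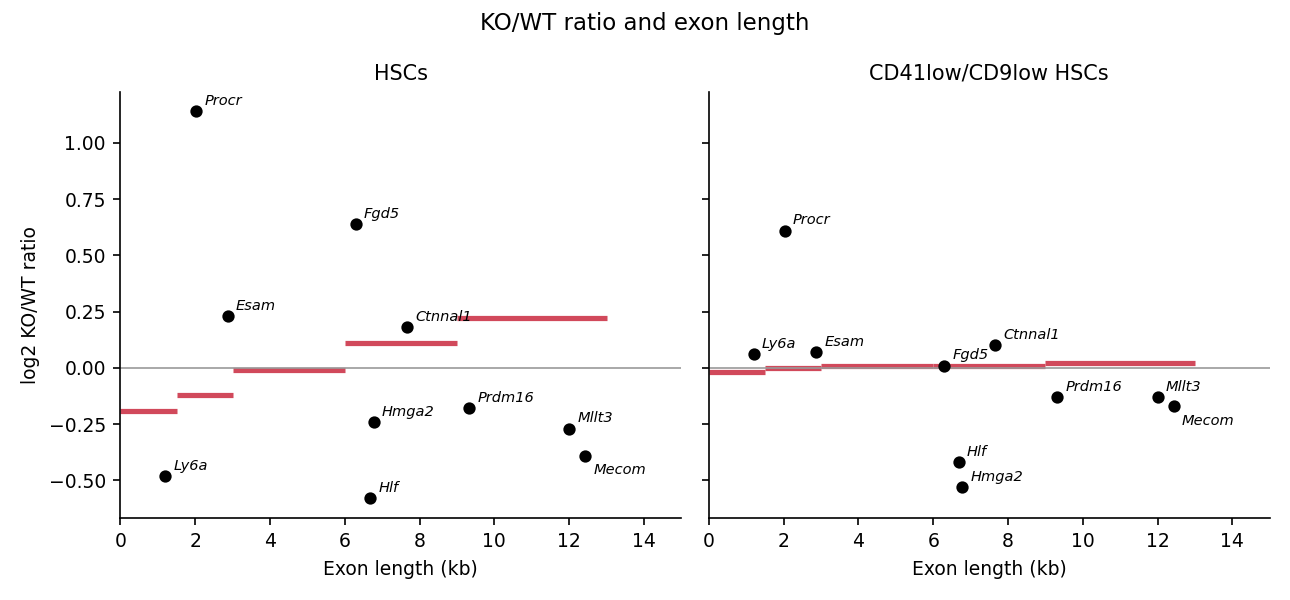
log2 KO/WT ratio of each gene (points) against its exon length in kb, in HSCs (left) and CD41low/CD9low HSCs (right); the horizontal bars are the median of all genes in each length class, and the last class holds all genes over 9.0 kb. In HSCs the medians climb from -0.19 to 0.22 and the 5 regulators lie below them, while in CD41low/CD9low HSCs the medians stay between -0.02 and 0.02.

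The effect of genotype common to both populations was then tested with the populations as repeats of each other, in an additive model of all 4 libraries fitted with edgeR. Procr was the only gene of the 10 past an adjusted p of 0.05. Its fitted difference was 0.87 ± 0.161 on the log2 scale (SE), or 1.83-fold higher in KO, with an adjusted p of 0.0117 by edgeR's quasi-likelihood test with Benjamini-Hochberg adjustment. Among all 14940 genes tested, 0.535% were higher and 0.308% lower in KO. The fitted difference of Hlf was -0.50 ± 0.142 (adjusted p = 0.145 by the same edgeR test) and that of Mecom -0.28 ± 0.144 (adjusted p = 0.549). The other regulators were at -0.16 (Prdm16), -0.20 (Mllt3) and -0.38 (Hmga2), and the other markers at 0.15 (Esam), -0.21 (Ly6a), 0.33 (Fgd5) and 0.14 (Ctnnal1). None of these reached the threshold, with edgeR adjusted p-values from 0.57 to 0.89. The median of the 5 regulators was -0.28 and of the 5 markers 0.15, beside 0.01 over all genes. Under 6 alternative settings the adjusted p of Procr stayed between 3.56e-06 and 0.0375, and that of Hlf ran from 0.0228 to 0.181, with Hlf passing in 2 of them.

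The next question was how the CD41low/CD9low HSCs differ from the HSCs in these genes, with the genotypes as repeats of each other. Procr, Ly6a, Prdm16 and Hlf were higher in CD41low/CD9low HSCs and Ctnnal1 was lower, whereas Mecom, Mllt3, Hmga2 and Esam did not pass the test. Procr was at 45.7 and 99.0 CPM in the HSC libraries (WT and KO) and at 164.9 and 251.0 CPM in the CD41low/CD9low libraries. The fitted difference was 1.53 ± 0.163 on the log2 scale, 2.9-fold (adjusted p = 5.87e-06, edgeR's quasi-likelihood test). Both CD41low/CD9low libraries lay above both HSC libraries. Ly6a was at 23.5 and 16.6 CPM in HSCs and at 48.9 and 51.0 CPM in CD41low/CD9low HSCs, a difference of 1.28 ± 0.209 or 2.42-fold (edgeR adjusted p = 0.00039). Prdm16 was at 49.7 and 43.2 CPM against 92.8 and 84.6 CPM, 0.88 ± 0.159 or 1.83-fold higher (edgeR adjusted p = 0.00094). Again the populations did not overlap in either gene. Hlf was at 280.4 and 185.2 CPM in HSCs and at 439.7 and 329.3 CPM in CD41low/CD9low HSCs, 0.68 ± 0.142 or 1.6-fold higher (edgeR adjusted p = 0.00272). Ctnnal1 went the other way, from 102.8 and 115.1 CPM in HSCs to 56.3 and 60.3 CPM, a log2 difference of -0.96 ± 0.155 (edgeR adjusted p = 0.000355). These 5 calls held under the 6 alternative settings tried.

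These 4 genes of 10 higher and 1 of 10 lower stood beside 8.24% of all genes higher and 12.6% lower in CD41low/CD9low HSCs, 1231 and 1876 genes. Scaling by total counts changed that split to 1719 higher and 1650 lower. Fgd5 was at 57.4 and 88.1 CPM in HSCs and at 103.6 and 104.3 CPM in CD41low/CD9low HSCs, with a fitted difference of 0.49 ± 0.171 just short of the threshold (adjusted p = 0.0534, edgeR). Mecom was at 267.1 and 201.1 CPM in HSCs and at 293.5 and 260.7 CPM in CD41low/CD9low HSCs, so that the libraries of the populations overlapped. Mllt3 stayed between 163.4 and 199.4 CPM, Esam between 111.7 and 132.8 CPM and Hmga2 between 6.8 and 9.82 CPM over the 4 libraries. The fitted differences were 0.19 for Mecom, -0.14 for Mllt3, -0.17 for Esam and -0.07 for Hmga2, with edgeR adjusted p-values from 0.384 to 0.923. The sign was not stable for Mllt3 and Hmga2, which both turned positive with exon length offsets, and Hmga2 was at 0.00 with total-count scaling.

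**Figure D4:**
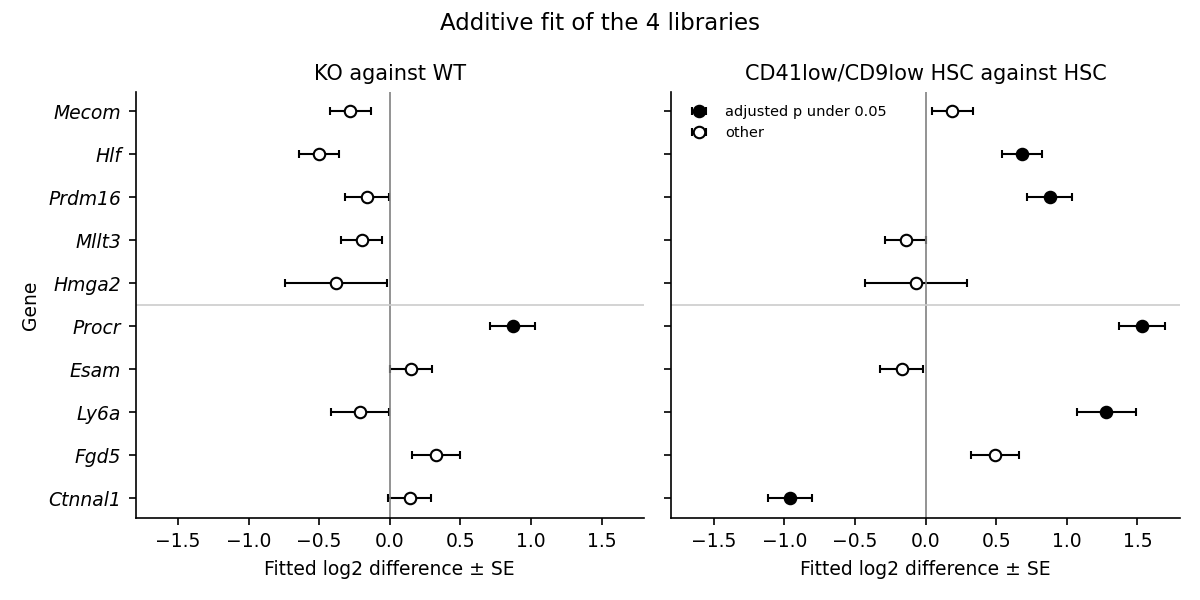
Fitted log2 differences ± SE of each gene in the additive edgeR fit of the 4 libraries, for KO against WT (left) and CD41low/CD9low HSCs against HSCs (right); filled points have an adjusted p under 0.05. Procr is filled in both panels, at 0.87 and 1.53, and Hlf, Prdm16, Ly6a and Ctnnal1 are filled in the population panel alone.

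Markers of other cell types were read in the same libraries, because Procr, Esam and Fgd5 are also genes of endothelium. Of 12 endothelial genes, 10 entered the fit and none was called for genotype, while Egfl7 was higher and Kdr and Plvap were lower in CD41low/CD9low HSCs. The list summed to 401.1 and 458.4 CPM in WT and KO HSCs and to 548.4 and 502.6 CPM in WT and KO CD41low/CD9low HSCs, and its largest member, Tie1, at 212.9 to 289.0 CPM, is expressed by HSCs themselves. In KO against WT HSCs, 7 of the 11 genes that passed the filter had a ratio over 1 and 4 under 1. The ratio was 3.67 for Plvap, at 1.4 and 5.06 CPM, and 1.61 for Kdr, at 16.6 and 26.3 CPM. That of Egfl7 was 0.722, at 62.3 and 44.4 CPM. Of the 12 genes, 5 were at 0 counts in WT CD41low/CD9low HSCs and 4 in KO, Cdh5 (VE-cadherin) and Plvap in both, which allows at most 0.236 CPM in WT and 0.157 CPM in KO. Others were present there, Emcn at 17.8 and 21.3 CPM and Cldn5 at 4.32 and 3.87 CPM against 1.18 and 1.39 CPM in HSCs. Megakaryocyte genes moved with the population: 10 of 12 were lower in CD41low/CD9low HSCs, Pf4, Itga2b, Vwf and Cd9 among them, and the list summed to 548.1 to 656.8 CPM there against 1750.6 to 2438.0 CPM in HSCs. Of these, Itga2b and Cd9 encode the antigens CD41 and CD9 that define the gate. Itgb3, the partner of CD41, was the only gene of the list called for genotype, higher in KO by 1.59 on the log2 scale. Tubb1, the tubulin of platelets, was below 0.6 in both populations, at ratios of 0.208 and 0.272, and was not called.

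Erythroid genes summed to 1114.1 and 587.3 CPM in WT and KO HSCs and to 884.8 and 771.9 CPM in WT and KO CD41low/CD9low HSCs, mostly from Car2, and 5 of 9 (Klf1, Epor, Car1, Ermap and Tfrc) were lower in CD41low/CD9low HSCs. Klf1 had a KO/WT ratio of 0.57 in HSCs and 0.436 in CD41low/CD9low HSCs, and Car1 and Ermap were also below 0.6 in both. Myeloid genes summed to 370.0 to 464.4 CPM in 3 libraries and to 107.7 CPM in KO CD41low/CD9low HSCs. Mpo, Ctsg, Ms4a3, Ly86 and Irf8 were lower in CD41low/CD9low HSCs, and Prtn3 was lower in KO, with a log2 difference of -0.70 (edgeR adjusted p = 0.0488). Lymphoid genes were at 24.4 to 26.4 CPM in HSCs and at 143.6 and 57.1 CPM in WT and KO CD41low/CD9low HSCs, nearly all of it from Flt3, a gene of multipotent progenitors at 141.1 and 56.1 CPM there. Beside Flt3 and Mpo, the progenitor genes called were Cd34, higher in CD41low/CD9low HSCs, and Cd48, lower at 1.26 and 2.2 CPM against 6.01 and 7.75 CPM. The progenitor list summed to 411.3 and 447.8 CPM in WT and KO HSCs and to 619.8 and 348.9 CPM in WT and KO CD41low/CD9low HSCs. Stromal genes summed to 91.6 and 134.6 CPM in HSCs and to 35.8 and 29.6 CPM in CD41low/CD9low HSCs, with Col1a1 and Col1a2 lower there. The part of these admixed or gated transcripts in the values of the 10 genes was not tested.

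The relatives and partners of the regulators gave few calls. Of 11 PR-domain genes and their corepressors, 10 passed the filter and none was called for genotype, with a median ratio of 1.1 in HSCs and 1.05 in CD41low/CD9low HSCs. Ctbp1, the corepressor bound by Mecom and Prdm16, was the most abundant at 218.1 and 218.2 CPM in the HSC pair and 267.0 and 264.3 CPM in the other pair. Prdm15 was lower in CD41low/CD9low HSCs, with a log2 difference of -0.56. Of 3 bZIP relatives of Hlf, Dbp was higher in CD41low/CD9low HSCs, by 0.96 on the log2 scale (edgeR adjusted p = 0.00954), as Hlf was. Tef was the most abundant of the 3, at 66.4 to 87.6 CPM. Of 13 relatives and partners of Mllt3, Dot1l and genes of the super elongation complex among them, 12 entered the fit and none was called for genotype. Aff4, a scaffold of that complex and its most abundant gene, had a ratio of 1.82 in HSCs and 1.24 in CD41low/CD9low HSCs, and Aff4 and Ccnt2 were lower in CD41low/CD9low HSCs.

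Hmga2 is a target of the fetal Lin28b pathway, which removes let-7 miRNAs, and 5 of 8 genes of that axis passed the filter. Lin28b itself was at 0.264 to 1.31 CPM. Igf2bp2, an RNA-binding protein regulated with Hmga2, was below 0.6 in both populations, at ratios of 0.507 and 0.512, and went from 7.72 to 3.86 CPM in HSCs and from 12.6 to 6.43 CPM in CD41low/CD9low HSCs between WT and KO. Its fitted genotype difference of -0.97 did not pass (edgeR adjusted p = 0.369). The paralog Hmga1 was at ratios of 0.668 and 0.718. Arid3a, the most abundant of the list over the 4 libraries, was at ratios of 1.04 and 0.966. The median fitted genotype difference of these genes was -0.53 beside 0.01 over all genes, and none was called.

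For the markers, the protein C pathway was read beside Procr. F2r encodes PAR1, the receptor that is cleaved by protein C bound to Procr, and it was the other gene of this axis past 1.5 in both populations. It was at 262.3 and 746.8 CPM in WT and KO HSCs and at 74.2 and 180.8 CPM in WT and KO CD41low/CD9low HSCs, with ratios of 2.89 and 2.44. Its fitted genotype difference was 1.41 on the log2 scale (edgeR adjusted p = 4.4e-05). By population F2r went against Procr, with a log2 difference of -2.00 between CD41low/CD9low HSCs and HSCs. Thbd (thrombomodulin, which activates protein C with thrombin) and F2rl2 (PAR3) were also lower there, at -2.96 and -2.82, and were not called for genotype. Proc, which encodes protein C and is expressed in liver, had 0 counts in all 4 libraries, which allows at most 0.0591 to 0.236 CPM.

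Of 6 Fgd and Cdc42 genes, none was called for genotype, and the median ratio was 1.02 in both populations. Fgd1 and Fgd4 resembled Fgd5 in HSCs with ratios of 1.71 and 1.86, and were at 1.02 and 1.36 in CD41low/CD9low HSCs. Fgd2, Fgd3 and Fgd6 lay under 1 in HSCs, at 0.904, 0.835 and 0.642. Cdc42, the most abundant at 296.1 to 452.1 CPM, was lower in CD41low/CD9low HSCs and Fgd2 higher. Among 7 junction genes, relatives of Esam and Ctnnal1, 5 entered the fit and none was called for genotype. Ctnna3, an α-catenin that did not enter the fit, had 1 count in WT and 213 in KO HSCs, a ratio of 262.9 (46.7 to 10431.8). It passed the filter through the KO HSC library alone. In CD41low/CD9low HSCs it had 1 count in WT and 0 in KO. Vcl (vinculin), the most abundant, was lower in CD41low/CD9low HSCs, with a log2 difference of -1.73, and F11r (JAM-A) was higher, at 0.49. Of 9 other Ly6 genes, 3 entered the fit and none was called. Ly6e, the most abundant at 151.6 to 248.2 CPM, had ratios of 0.779 and 0.928. Ly6a is induced by interferon, and of 17 interferon-response genes none was called for genotype, with median ratios of 0.933 and 0.88. By population Ifitm3 and Iigp1 were among those higher and Ifi44 among those lower in CD41low/CD9low HSCs.

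Most other HSC regulators gave a contrast in direction to the 5 regulators. Of 22 further HSC transcription factors and chromatin regulators, 16 had a ratio over 1 in HSCs and 19 in CD41low/CD9low HSCs. Over all genes, 7958 of 15910 and 7532 of 14844 had a ratio over 1. The 22 genes had median ratios of 1.16 and 1.15, while the 5 regulators above were under 1. Both lists were chosen with earlier results known, so these counts are a description only. Gfi1, the paralog and a direct target of Gfi1b, and Gata2 were among those called higher in KO, by 2.68 and 0.97 on the log2 scale. Gata2 had ratios of 1.98 and 1.95, so that Procr, Gfi1 and Gata2 passed the upper cutoff in both populations. Lmo2 was the most abundant of these regulators, with ratios of 0.657 and 0.886, under 1 in both populations as the 5 regulators were. Erg and Lyl1 had ratios of 0.676 and 0.671 in HSCs, close to that of Hlf, and of 1.14 and 1.13 in CD41low/CD9low HSCs. By population 7 of the 22 were higher in CD41low/CD9low HSCs (Erg, Lyl1, Lmo2, Ldb1, Hoxa9, Gfi1 and Nfix) and 6 lower, Gata2, Fli1, Runx1, Etv6 and Bmi1 among them. Of 15 further HSC surface genes none was called for genotype, and the median ratios were 1.06 and 1.07. Adgrg1 was the most abundant at 1282.7 to 1795.0 CPM. Cd34, Cd27, Robo4 and Pdzk1ip1 were higher in CD41low/CD9low HSCs, as were Procr and Ly6a, and Slamf1 (CD150), Tek, Trpc6 and Itga6 were lower, as was Ctnnal1.

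The likeness of each gene's pattern to that of other protein-coding genes was measured as the distance over the 4 log2 CPM values, each centred on its own mean, among 10559 genes with at least 50 counts in every library. Procr had the fewest near neighbours, with 1 gene within a distance of 0.2, Kifc2 at 0.129. Kifc2 went from 1.18 and 2.61 CPM in WT and KO HSCs to 3.93 and 6.69 CPM in WT and KO CD41low/CD9low HSCs. Ly6a had 10 genes within 0.2, Zbtb42 and Rap1gap nearest, and Hlf had 46, Cd3eap and Pafah1b3 nearest. Fgd5 had 51 (Fuom and Cyp2j6), Prdm16 125 (Prss57 and Hist1h4f) and Ctnnal1 132 (Sypl and Brca2). Mecom, Mllt3 and Esam had 434, 586 and 677 genes within 0.2, and Hmga2 had 158. With 4 libraries that differ in several ways at once, likeness of this kind is a description of the libraries only.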

How the data were processed

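RNA of sorted Gfi1b WT and KO HSCs and CD41low/CD9low HSCs was read with the TruSeq Stranded mRNA kit on a HiSeq instrument, with 1 library per population and genotype. The authors used TopHat 2.0.10 with the mm10 build (GRCm38) and Samtools, and the raw counts per Ensembl gene that they deposited were made with HTSeq. Its version, strand setting and Ensembl release are not given in the sources used here. Closing lines that name no gene were left out of totals: reads on no feature came to 60.1 to 105.3 per 100 gene counts. How reads shared by near-identical genes or by overlapping transcripts were divided was decided in this counting.

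Identifiers were matched to symbols and exon lengths with GENCODE M21 of GRCm38. The members and all gene lists were chosen with earlier results of these data known. KO/WT ratios used median-of-ratios size factors of each pair (ratio 0.81 in HSCs and 1.5 in CD41low/CD9low HSCs) and kept a gene if 1 library or more had 10 counts. Ratios above 1.5 or below 0.6 were called, as in the study, without a test, and carry exact Clopper-Pearson 95% intervals, which cover counting error only. A count of 0 was read as at most 3 counts.

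The additive fit (population plus genotype, 1 residual degree of freedom, 14940 genes with 10 counts or more in 2 libraries) used edgeR 4.0.16 with TMM and Benjamini-Hochberg adjustment over all genes at a threshold of 0.05. Its common biological coefficient of variation was 0.255. It treats the populations as repeats of the genotype difference, and the genotypes as repeats of the population difference, so its p-values measure only how far these differ. Genes named beside the 10 were Gfi1b and, from each list, the members past the same cutoff in both populations, those called in the fit for genotype or population and the most abundant. Fgd1, Fgd3, Fgd4, Fgd6, Lin28b, Hmga1, Tie1, Cdh5, Emcn, Cldn5, Ctnna3, Ly6e and Proc were named after their values were seen where the rule did not give them. For each of the 10, up to 2 protein-coding genes of nearest pattern were named. Some genes that these rules give are not reported here. The software was R 4.3.3, DESeq2 1.42.0, Python 3.11.15, numpy 2.4.6, pandas 2.3.3, scipy 1.17.1 and matplotlib 3.10.9.

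The alternatives were other normalizations (TMM, RLE, total count, size factors over 4 libraries), no or a stricter filter, 1 count added to each value, a lower cutoff of 1/1.5, and DESeq2. A running median over the 500 genes nearest in exon length, subtracted from the ratios or used as offsets in the fit, was added after seeing the data.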

Additional observations from a re-analysis of the deposited data

How the results depend on the processing

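For the 10 genes, all ratios within a population and all genotype differences of the additive fit kept their direction under every alternative. Correcting for exon length, which was chosen after seeing the data, left 1 of the 10 genes above 1.5 in HSCs in place of 2, as Fgd5 went to 1.46, and moved the log2 ratio of every member but Hmga2 beyond its counting interval there. In the additive fit Hlf passed for genotype without a filter (adjusted p = 0.0335) and with exon length offsets (adjusted p = 0.0228), in a range over the alternatives of 0.0228 to 0.181 (edgeR and DESeq2). For population, Fgd5 passed under 3 of 6 alternatives (adjusted p from 0.00429 to 0.103) and Mecom under 1 of 6 (0.0132 to 0.597). The population difference of Mllt3 turned to 0.12 with exon length offsets, and that of Hmga2 to 0.07 with these offsets and to 0.00 with total-count scaling, neither past the threshold. The cause was not tested.

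Counts over all genes moved by more than 1.5 times as follows. Genes above 1.5 in HSCs numbered 2248, 1431 with at least 50 counts and 4354 without a filter, and genes below 0.6 numbered 1639, 792 and 2649. In CD41low/CD9low HSCs genes above 1.5 numbered 1992, 980 and 3113, and those below 0.6 numbered 1788 and, with at least 50 counts, 702. Genes higher in KO in the additive fit numbered 80, 121 with total-count scaling, 254 without a filter, 50 with at least 50 counts and 144 with exon length offsets, and genes lower numbered 46, 85, 166, 19 and 116. The filters change how many genes are tested. Leaving out a library left no test, since 3 libraries give the additive fit no residual degree of freedom, and left the ratio of the other population as it was. The additive fit itself compares the genotypes within each population, and no further block was fitted because the labels give no replicate numbers.

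With pooled animals and 1 library per group, variation between animals is not measured. Depth limits Hmga2 most, at 125 counts in WT CD41low/CD9low HSCs.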
